A study of Homo sapiens with 6 samples.

Results

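The genes described here are the glucocorticoid receptor and 9 of its target genes in 21NT cells that carried extra copies of the transcription factor TBX3. They were selected by symbol, with earlier results of these data known. All 10 (*NR3C1*, *FKBP5*, *TSC22D3*, *DUSP1*, *KLF9*, *KLF15*, *ZBTB16*, *CEBPD*, *SGK1* and *ERRFI1*) had a row among the 20824 genes of the expression table. 21NT is a human breast line used as a model of ductal carcinoma in situ. It was stably transfected with an empty pcDNA3.1 vector (EV) or with the same vector carrying TBX3iso1 or TBX3iso2, the alternatively spliced forms of the T-box repressor TBX3, and RNA was sequenced from 2 libraries of each of the 3 lines. Each line was a pool of drug-resistant clones, and the sources do not say whether its 2 libraries came from separate cultures. The p-values below measure the spread between these libraries, which may be technical. All 3 lines, the EV control included, grew to 80% confluence in medium with 10% FBS, 2.8 µM hydrocortisone, 12.5 ng/ml EGF and 1 µg/ml insulin. Hydrocortisone is cortisol, the natural ligand of the receptor, so every library came from cells exposed to a glucocorticoid and no library shows the genes without one.

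The glucocorticoid receptor waits in the cytoplasm with chaperones, enters the nucleus once it binds cortisol, and raises transcription of genes that carry its binding element while it restrains NF-κB and AP-1 at inflammatory genes. Its direct targets include proteins that damp its own signal and inflammatory kinases, transcription factors that pass the signal on, and regulators of kinase pathways. In breast epithelium the hormone supports survival and differentiation, and it belongs to the usual growth medium of mammary cell cultures.

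*TBX3* itself, which checks the labels, was at 8.52 and 8.24 RPKM (reads per kilobase of transcript, scaled for the number of mapped reads) in the EV libraries, 13.1 and 11.4 RPKM in the TBX3iso1 libraries and 17.5 and 15.5 RPKM in the TBX3iso2 libraries. The lines did not overlap, and the log2 fold change against EV was 0.54 (adjusted p = 0.00378, a fold under 1.5) and 0.97 (adjusted p = 0.000257). A value per gene cannot tell the isoforms apart, so it does not check which TBX3 line is which. The libraries held 43176600 to 54512400 alignments. Of 10 epithelial markers, 9 were over 10 RPKM in every library, and their summed level was 3406 to 3525 RPKM in EV, 2764 to 3029 RPKM with TBX3iso1 and 3129 to 3511 RPKM with TBX3iso2. Marker lists of other cell types also moved with the lines. The summed fibroblast list was 4.70 to 4.98, 8.21 to 8.87 and 7.16 to 7.59 RPKM in the same order, carried by *COL1A1*. The summed leukocyte list was 52.7 to 54.9, 36.7 to 36.9 and 36.4 to 36.7 RPKM, made up mostly of *CD68* and *CD14*, and its defining marker *PTPRC* was at most 0.0102 RPKM. The summed endothelial list was 7.41 to 7.78, 1.42 to 1.49 and 1.33 to 1.49 RPKM, carried by *PECAM1*, with *CDH5* at most 0.083 RPKM. Their part in the results below was not tested.

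RNA of the receptor did not differ measurably between the lines, and these libraries do not measure its protein or activity. *NR3C1*, which encodes the receptor, was at 5.07 and 4.55 RPKM in EV, 5.14 and 4.54 RPKM with TBX3iso1 and 5.36 and 4.14 RPKM with TBX3iso2. The 3 lines overlapped, and replicate 1 was above replicate 2 in each. The log2 fold change against EV was 0.01 (95% interval -0.32 to 0.33, adjusted p = 0.97) with TBX3iso1 and -0.03 (-0.35 to 0.30, adjusted p = 0.885) with TBX3iso2. These fold changes and p-values, and all that follow, come from limma on log2(RPKM + 0.1) over the 12805 genes that averaged 0.5 RPKM or more across the 6 libraries, with Benjamini-Hochberg adjustment over all of those genes. A change of *NR3C1* RNA within these intervals was not detectable with 2 libraries per line. *NR3C2*, the mineralocorticoid receptor, which also binds cortisol, was at most 0.0171 RPKM and was listed at 0 in 1 library of each TBX3 line.

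In the EV line the target genes spanned a wide range of levels per length. *ERRFI1* had the highest mean RPKM of the list, 83.6 ± 7.08 (SD, n = 2), followed by *FKBP5* at 31.6 ± 0.428, *CEBPD* at 22.8 ± 0.274, *TSC22D3* at 16.2 ± 0.184, *KLF9* at 8.99 ± 0.00283, *SGK1* at 7.26 ± 0.565 and *DUSP1* at 5.38 ± 0.0862. The receptor itself came next at 4.81 ± 0.364, above *KLF15* at 0.989 ± 0.0307 and *ZBTB16* at 0.101 ± 0.0421. No 2 neighbours in this order overlapped between their EV libraries. With TBX3iso1 the middle of the order closed up, and the libraries of *NR3C1*, *DUSP1* and *SGK1*, at mean RPKM of 4.84, 4.76 and 4.48, overlapped one another.

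**Figure D1:**
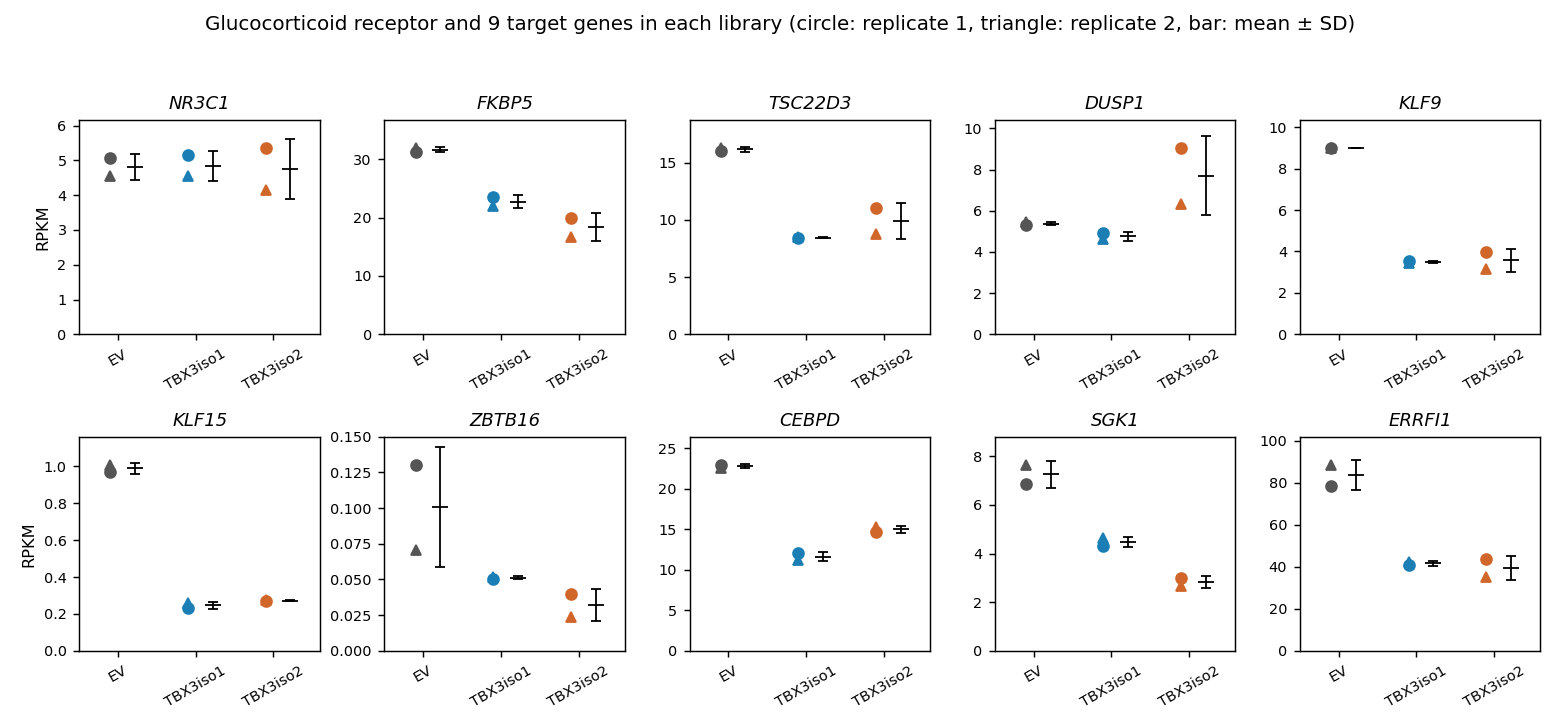
RPKM of the receptor gene and its 9 target genes (y axes, each from 0 with its own scale) in the 3 lines (x axis), with circles for replicate 1, triangles for replicate 2 and bars for mean ± SD of 2 libraries. *NR3C1* overlaps across the lines at 4.14 to 5.36 RPKM, while *KLF9* falls from 8.99 RPKM in EV to between 3.17 and 3.98 RPKM in the other 4 libraries.

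Most of the target genes were lower than in EV in both TBX3 lines, and none was called higher than EV. Genes with a fold change over 1.5 and an adjusted p below 0.05 are referred to as called. With TBX3iso1, 6 of the 8 target genes that could be tested were called lower and 0 higher, where 14.1% of all genes tested were called lower and 7.46% higher. With TBX3iso2, 7 of the 8 were called lower and 0 higher, against 12.3% and 8.94% of all genes tested. Counted with the receptor, that was 6 and 7 of 9 genes. Because the genes were chosen with earlier results of these data known, setting these counts beside all genes is not a test of the list. The median log2 fold change of the 8 target genes was -0.95 and -0.94, beside -0.05 and -0.00 over all genes tested. Both comparisons use the same EV libraries, so they are not independent of each other. Each line, EV included, was its own pool of clones, so TBX3 and pool cannot be told apart in either comparison. *KLF15* passed the filter on low values only through its EV level and so had to differ, and without it the counts were 5 and 6 of 7. It was under the filter, and so untested, when an EV library was left out. *KLF15* and *ERRFI1* are also among genes that the study picked, partly from these libraries. For *KLF15* the paper lists overlapping binding sites of both TBX3 isoforms, from chromatin immunoprecipitation on arrays, and a T-box element. Across all genes, the balance of the calls moved with the scaling: lower calls were 65.4% of the calls with TBX3iso1 as deposited and 51% after quantile normalization. In these bulk libraries, fewer cells expressing a gene and less RNA per cell cannot be told apart.

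The feedback and anti-inflammatory targets were lower in both TBX3 lines, with the exception of *DUSP1*. *FKBP5*, a co-chaperone that lowers the affinity of the receptor for its ligand and is among its most sensitive targets, was at 31.3 and 31.9 RPKM in EV, 23.6 and 21.9 RPKM with TBX3iso1 and 20.0 and 16.7 RPKM with TBX3iso2. The lines did not overlap, and the order ran from EV through TBX3iso1 to TBX3iso2. The log2 fold change was -0.47 (SE 0.0979, adjusted p = 0.00637) with TBX3iso1, which is a fold under 1.5 and so was not called, and -0.79 (adjusted p = 0.000616) with TBX3iso2, which was called.

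*TSC22D3*, also known as GILZ, binds and restrains NF-κB and AP-1. It was at 16.0 and 16.3 RPKM in EV, 8.39 and 8.47 RPKM with TBX3iso1 and 11 and 8.80 RPKM with TBX3iso2. Every TBX3 library was under both EV libraries, and the TBX3iso2 libraries were further apart than those of the other lines. Its log2 fold change was -0.93 (SE 0.109, adjusted p = 0.00049) with TBX3iso1 and -0.71 (adjusted p = 0.00163) with TBX3iso2. Without TBX3iso2 replicate 2 the latter was -0.55, under the fold threshold.

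*DUSP1*, a phosphatase that switches off the p38 and JNK kinases, was the one tested target that was called against EV in neither TBX3 line. It was at 5.31 and 5.44 RPKM in EV, 4.91 and 4.61 RPKM with TBX3iso1 and 9.05 and 6.35 RPKM with TBX3iso2. The TBX3iso2 libraries were above all others but also furthest apart. With TBX3iso1 the log2 fold change was -0.17 (SE 0.155, adjusted p = 0.388). With TBX3iso2 it was 0.49 (adjusted p = 0.0347), under the fold threshold, and it was 0.74 (adjusted p = 0.000905) and called without TBX3iso2 replicate 2.

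Of the transcription factors, *KLF9* and *CEBPD* were called lower in both TBX3 lines. So was *KLF15*, which passed the filter only through its EV level. *KLF9*, a Krüppel-like factor that answers glucocorticoids in many tissues, was at 8.99 RPKM in each EV library, 3.54 and 3.46 RPKM with TBX3iso1 and 3.98 and 3.17 RPKM with TBX3iso2. All 4 TBX3 libraries were well under EV, and the TBX3 lines overlapped each other. Its log2 fold change was -1.34 (SE 0.118, adjusted p = 0.000137) with TBX3iso1 and -1.32 (adjusted p = 0.000149) with TBX3iso2.

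*KLF15*, a relative of *KLF9* that directs amino acid and lipid metabolism, was at 0.967 and 1.01 RPKM in EV, 0.233 and 0.260 RPKM with TBX3iso1 and 0.270 and 0.276 RPKM with TBX3iso2. The EV libraries stood apart from the other 4. The gene passed the filter on low values only through EV, so it had to differ and its p-values are not evidence of a change. Its log2 fold change was -1.65 (SE 0.175, adjusted p = 0.000314) and -1.55 (adjusted p = 0.000404). These are low values, from 52.7 alignments per kilobase in EV down to 11.9, and the pseudocount set the size: the changes were -0.67 and -0.64 with a pseudocount of 1, and -1.96 and -1.82 with 0.01.

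*ZBTB16*, a zinc-finger repressor that glucocorticoids induce strongly in some tissues, was near the limit of detection. It was at 0.131 and 0.0709 RPKM in EV, 0.0505 and 0.0520 RPKM with TBX3iso1 and 0.0401 and 0.0239 RPKM with TBX3iso2. Both EV libraries were above the other 4, but the values came from 1.04 to 7.12 alignments per kilobase. It was under the filter of 0.5 RPKM and was not tested in the fit used here. Without the filter the log2 changes of -0.39 and -0.59 had adjusted p = 0.149 and 0.0565, so a difference was not detectable at this depth.

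*CEBPD*, a factor that takes part in differentiation and the acute-phase response, was at 23.0 and 22.6 RPKM in EV, 12 and 11.2 RPKM with TBX3iso1 and 14.7 and 15.3 RPKM with TBX3iso2. The 3 lines did not overlap, with TBX3iso1 lowest. Against EV the log2 fold change was -0.97 (SE 0.074, adjusted p = 7.26e-05) with TBX3iso1. With TBX3iso2 it was -0.60 (adjusted p = 0.000597), just past the fold threshold, and it was -0.57 and not called with a pseudocount of 1 or without TBX3iso2 replicate 1.

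Both regulators of kinase pathways were lower in the TBX3 lines. *SGK1*, a kinase downstream of PI3K that raises sodium uptake and cell survival, was at 6.86 and 7.66 RPKM in EV, 4.33 and 4.62 RPKM with TBX3iso1 and 3.00 and 2.67 RPKM with TBX3iso2. The lines did not overlap and followed the same order as *FKBP5*. The log2 fold change was -0.68 (SE 0.107, adjusted p = 0.0018) with TBX3iso1 and -1.33 (adjusted p = 8.96e-05) with TBX3iso2. Under quantile normalization the former was -0.56, under the fold threshold.

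*ERRFI1*, also known as MIG6, binds the EGF receptor and inhibits it. It was at 78.6 and 88.6 RPKM in EV, 40.7 and 42.4 RPKM with TBX3iso1 and 43.5 and 35.2 RPKM with TBX3iso2. All 4 TBX3 libraries were under the lower EV library, and the TBX3 lines overlapped each other. The log2 fold change was -1.004 (SE 0.112, adjusted p = 0.000401) with TBX3iso1 and -1.09 (adjusted p = 0.000261) with TBX3iso2.

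**Figure D2:**
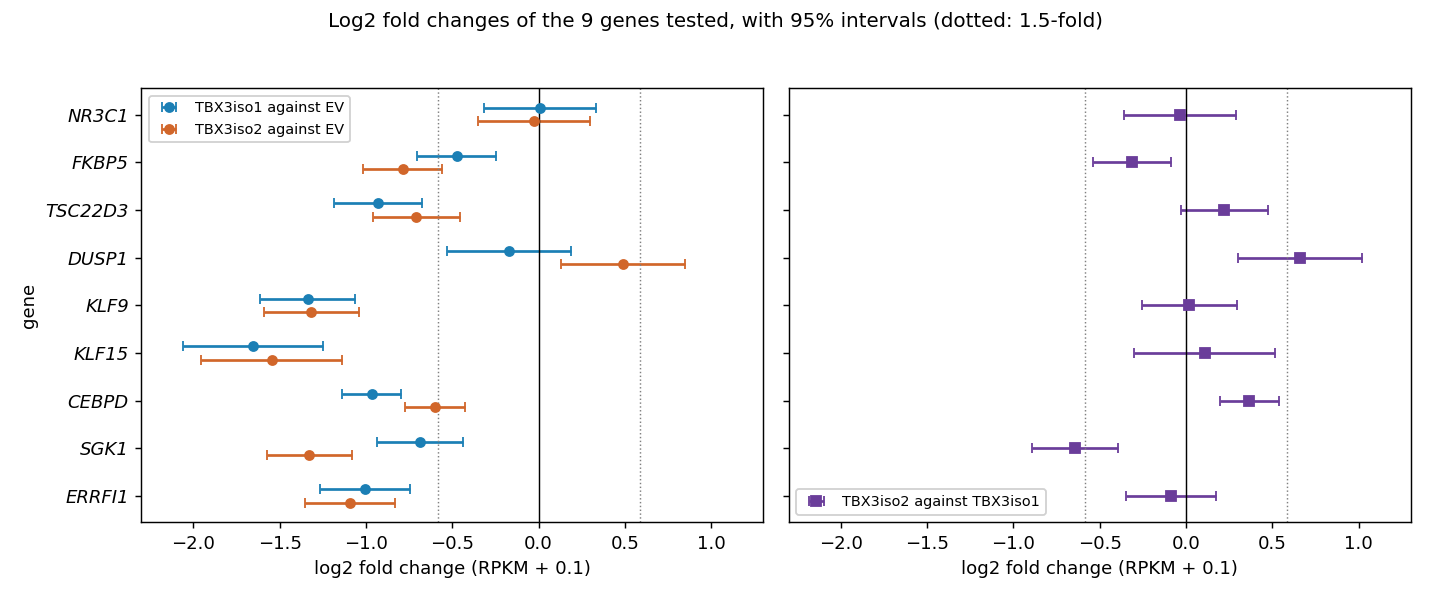
Log2 fold changes of the 9 genes tested (x axis, on the RPKM + 0.1 scale) with 95% intervals from limma, against EV on the left and between the TBX3 lines on the right, with dotted lines at 1.5-fold. Against EV, *NR3C1* lies at 0.01 and -0.03 and *KLF9* at -1.34 and -1.32. Between the TBX3 lines, *DUSP1* at 0.66 and *SGK1* at -0.64 lie past the dotted lines.

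The TBX3 lines differed from each other in a minority of the genes. Between TBX3iso2 and TBX3iso1, 1 of the 8 target genes tested was called higher, *DUSP1*, and 1 lower, *SGK1*, where 3.47% of all genes tested were called higher and 2.82% lower. Lower calls were 44.8% of all calls as deposited and 56.5% after median-ratio scaling. The log2 difference was 0.66 (SE 0.155, adjusted p = 0.0286) for *DUSP1* and -0.64 (SE 0.107, adjusted p = 0.00838) for *SGK1*. The *DUSP1* call was lost in 10 of 17 alternative analyses, 5 of them the removal of any 1 library other than TBX3iso2 replicate 2, and over the 17 the value ran from 0.41 to 0.91 and the adjusted p from 0.0013 to 0.253. The *SGK1* call was lost in 4 of 17, with values of -0.72 to -0.51 and adjusted p of 0.00315 to 0.137, and 1 of the 4 was the removal of TBX3iso2 replicate 2 (-0.56). *CEBPD* was higher with TBX3iso2 by 0.37 (adjusted p = 0.0171), under the fold threshold. For *FKBP5* the difference was -0.31 (95% interval -0.54 to -0.09, adjusted p = 0.0722) and for *TSC22D3* it was 0.22 (-0.03 to 0.47, adjusted p = 0.216). The intervals for *KLF9*, *KLF15*, *ERRFI1* and *NR3C1* included 0, and that for *KLF9* ran from -0.26 to 0.29.

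Replicate 2 of TBX3iso2 was below replicate 1 for 8 of the 10 genes. It stood at 70.2% of replicate 1 for *DUSP1*, 77.3% for *NR3C1*, 80.0% for *TSC22D3* and 83.3% for *FKBP5*. In EV the same ratio was 89.8% for *NR3C1* and 102% for *FKBP5*, and in TBX3iso1 it was 88.3% and 92.9%. Over all genes tested, the median log2 difference of TBX3iso2 replicate 1 minus replicate 2 was 0.00879 (SD 0.273).

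The receptor binds DNA as a pair, so its element has 2 arms that mirror each other around a gap of 3 bases. The letters GNACANNNTGTNC, which keep the conserved core of that element and read the same on both strands, were looked for within 10 kb on either side of the 5′ end of each gene (GRCh37, the genome that the files' hg19 build corresponds to, with GENCODE gene extents). They occurred at 4 of the 10 genes, and at 22.9% of 20076 protein-coding genes searched in windows of the same length. The full palindrome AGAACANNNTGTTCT occurred at 0 of 10 and at 0.314% of the genes. The T-box letters AGGTGTGA, searched on both strands because TBX3 belongs to that family, occurred at 10 of 10 and at 86.9% of the genes, so they set nothing apart. The T-box motif that the paper names has other letters and was not searched for. The 5 matches to the receptor's letters lie at *FKBP5*, *TSC22D3*, *KLF9* and *KLF15*, each called lower with TBX3iso2. Of these, *KLF15* passed the filter only through its EV level and so had to differ. *SGK1*, *ERRFI1* and *CEBPD*, which had no match, were also called lower with TBX3iso2, while *DUSP1* and *NR3C1*, also without one, were not called. *FKBP5*, with 2 of the 5 matches, was not called with TBX3iso1. A link between the letters and the calls was not tested. The matches are written 5′ to 3′ in the direction of the gene, on the minus strand, with the matched letters in capitals. No binding of the receptor was measured.
*FKBP5*, upstream: ggcgacggGCACAGGATGTTCtttcgctc
*FKBP5*, intron: cccgctcgGGACATTGTGTTCcagccccg
*TSC22D3*, intron: atggcccaGAACATACTGTGCtgtcccaa
*KLF9*, upstream: agtaaaaaGGACAAACTGTTCcacaacaa
*KLF15*, intron: tgtgcccgGAACAGCGTGTCCcctccccc

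The matches at *FKBP5* lie at chr6:35699788-35699816, at position -3442 from the 5′ end of the gene (chr6:35541362-35696360), and at chr6:35695883-35695911, in an intron 463 bases after it. At *TSC22D3* (chrX:106956451-107020572) the match lies at chrX:107011067-107011095, in an intron 9491 bases after the 5′ end. At *KLF9* (chr9:72999520-73029573) it lies at chr9:73035034-73035062, at position -5475, and at *KLF15* (chr3:126061478-126076251) at chr3:126074816-126074844, in an intron 1421 bases inside the gene. Shorter transcripts of these genes start elsewhere, and windows around those starts were not searched.

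No match to the receptor's letters was found in the windows of *NR3C1* (chr5:142657496-142815077), *DUSP1* (chr5:172195099-172198198), *ZBTB16* (chr11:113929763-114127487), *SGK1* (chr6:134490386-134639250), *ERRFI1* (chr1:8064464-8086369) and *CEBPD* (chr8:48649475-48650726). *ZBTB16* lies on the plus strand and the other genes on the minus strand. These windows too were centred on the outermost annotated 5′ end, and starts of shorter transcripts were not searched. A gene without a match here, such as the long *SGK1* or *NR3C1*, may therefore carry the letters near another start.

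A wider list of glucocorticoid-induced genes moved in both directions. Of 26 genes listed 25 were in the table and 22 were tested. With TBX3iso1, 6 were called lower and 2 higher, with a median log2 fold change of -0.23, and with TBX3iso2 8 were called lower and 5 higher, with a median of -0.13. In all, 36.4% and 59.1% of the list were called in either direction, beside 21.5% and 21.2% of all genes tested, and the 2 higher calls with TBX3iso1 are near the 7.46% of all genes. *BCL6*, a transcriptional repressor, fell by 2.16 and 2.40 on the log2 scale, and *PDK4*, which restrains glucose oxidation, fell by 1.66 and 1.01. *ANGPTL4*, an inhibitor of lipoprotein lipase, rose by 1.95 and 1.69. *MAOA*, a monoamine oxidase, fell by 3.02 with TBX3iso2 (-1.41 with a pseudocount of 1), and its change with TBX3iso1 was -0.53, under the fold threshold. *PER1*, a circadian repressor and an early target of the receptor, was at 25.9 ± 0.177, 21.7 ± 1.69 and 24.8 ± 3.76 RPKM (SD, n = 2) in EV, TBX3iso1 and TBX3iso2, with log2 changes of -0.26 (adjusted p = 0.0945) and -0.07 (adjusted p = 0.627).

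Inflammatory genes that glucocorticoids repress were mostly called higher with TBX3iso2. This list too was chosen with earlier results of these data known, and 11 of its 16 genes were tested. Of the 11 tested, 2 were called higher and 2 lower with TBX3iso1 (median log2 fold change 0.05), and 7 were called higher and 2 lower with TBX3iso2 (median 1.37). Between TBX3iso2 and TBX3iso1, 6 were called higher and 2 lower. Of all genes tested, 7.46% were called higher with TBX3iso1, 8.94% with TBX3iso2 and 3.47% between the TBX3 lines, and 14.1%, 12.3% and 2.82% were called lower. *CSF2*, a myeloid growth factor, rose by 1.31 with TBX3iso1 (0.86 with a pseudocount of 1) and 2.50 with TBX3iso2. The neutrophil chemokine *CXCL8* fell by 1.18 with TBX3iso1, rose by 1.83 with TBX3iso2 and differed by 3.01 (adjusted p = 5.73e-05) between them. *CXCL1*, a chemokine of the same receptor, and *IL11*, a cytokine of the IL-6 family, rose by 2.03 and 1.77 with TBX3iso2, and their changes with TBX3iso1 were 0.21 (adjusted p = 0.367) and -0.34 (adjusted p = 0.119). *IL1A* and *IL1B* were called lower with TBX3iso2, with log2 changes of -0.97 and -0.96. *PTGS2* and *ICAM1* were not called with TBX3iso2.

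**Figure D3:**
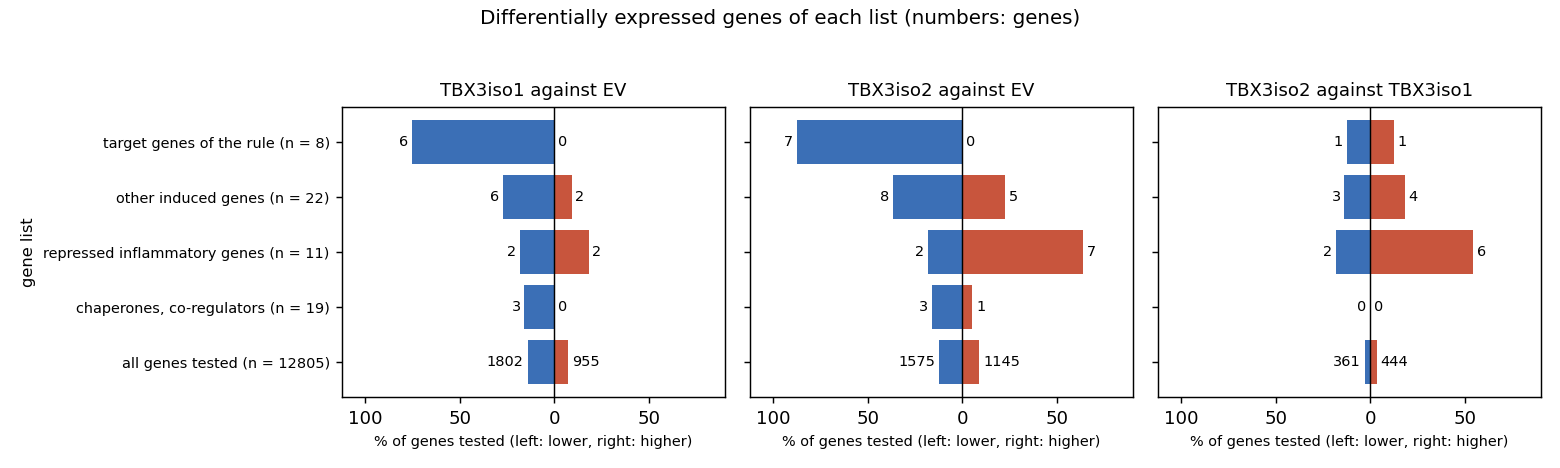
Share of the genes tested in each list (x axis, percent, lower to the left and higher to the right) that were differentially expressed in the 3 comparisons, with the number of genes beside each bar. The 8 target genes have 6 and 7 lower calls against EV, while the 11 repressed inflammatory genes have 7 higher calls with TBX3iso2. *KLF15*, among the target genes, passed the filter on low values only through its EV level and so had to differ.

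Genes of the proteins that fold and assist the receptor were called about as often as other genes. Of 19 chaperones and co-regulators, all tested, 3 were called lower and 0 higher with TBX3iso1, and 3 were called lower and 1 higher with TBX3iso2, with medians of -0.08 and -0.11. That was 15.8% and 21.1% of the list, beside 21.5% and 21.2% of all genes tested, in either direction. *NCOA3* and *NRIP1*, a co-activator and a co-repressor of nuclear receptors, fell by 1.02 and 0.88 with TBX3iso1 and by 0.89 and 0.63 with TBX3iso2. *CREBBP*, a histone acetyltransferase, fell by 0.62 with TBX3iso2, and the chaperone *HSPA8* rose by 0.66. The TBX3iso2 call of *NRIP1* was lost in 8 of 17 alternatives and that of *CREBBP* in 9 of 17. Both were lost without either EV library and without TBX3iso2 replicate 2 (-0.39 and -0.30 without the latter). The *HSPA8* call was lost in 2 of 17, among them the one without EV replicate 2 (0.63). *FKBP4*, the co-chaperone that takes the place of *FKBP5* when the receptor moves to the nucleus, was at 50.6, 62.5 and 53.3 RPKM on average in EV, TBX3iso1 and TBX3iso2, and its log2 change of 0.30 (adjusted p = 0.0192) with TBX3iso1 was under the fold threshold.

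RNA of the enzymes that make and remove cortisol inside the cell did change. *HSD11B1*, which regenerates cortisol from cortisone, was at 0.173 and 0.0549 RPKM in EV, 1.72 and 1.95 RPKM with TBX3iso1 and 0.357 and 0.334 RPKM with TBX3iso2. The lines did not overlap, and TBX3iso1 stood far above the others. It rose by 3.23 (SE 0.272, adjusted p = 0.000111) with TBX3iso1 and by 1.11 (adjusted p = 0.0128) with TBX3iso2, and the difference between the TBX3 lines was -2.12 (adjusted p = 0.00314). It passed the filter through its TBX3iso1 level, and its EV values are low, so the pseudocount set the size: its change with TBX3iso1 ran from 1.35 to 4.08 over the alternatives. Its change with TBX3iso2 ran from 0.27 to 1.70 and was no longer called in 5 of 16, among them the one without EV replicate 2 (0.70). *H6PD*, which supplies the cofactor for that reaction, was at 5.06 ± 0.242 RPKM in EV (SD, n = 2) and fell by 2.04 with TBX3iso1 and 2.51 with TBX3iso2 (-1.49 and -1.75 with a pseudocount of 1). *HSD11B2*, which inactivates cortisol, was at 4 and 4.11 RPKM in EV, 2.54 and 2.69 RPKM with TBX3iso1 and 2.35 and 2.38 RPKM with TBX3iso2, and fell by 0.61 (adjusted p = 0.00222) and 0.75 (adjusted p = 0.000835). The former was no longer called in 4 of 17 alternatives, among them the one without TBX3iso1 replicate 1 (-0.57). Over all 17 it ran from -0.66 to -0.42. *SRD5A1*, a reductase of steroids, fell by 0.70 with TBX3iso2 and its change with TBX3iso1 was -0.11 (adjusted p = 0.243). Cortisol itself was not measured, and the other 5 genes of this list were under the filter.

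**Figure D4:**
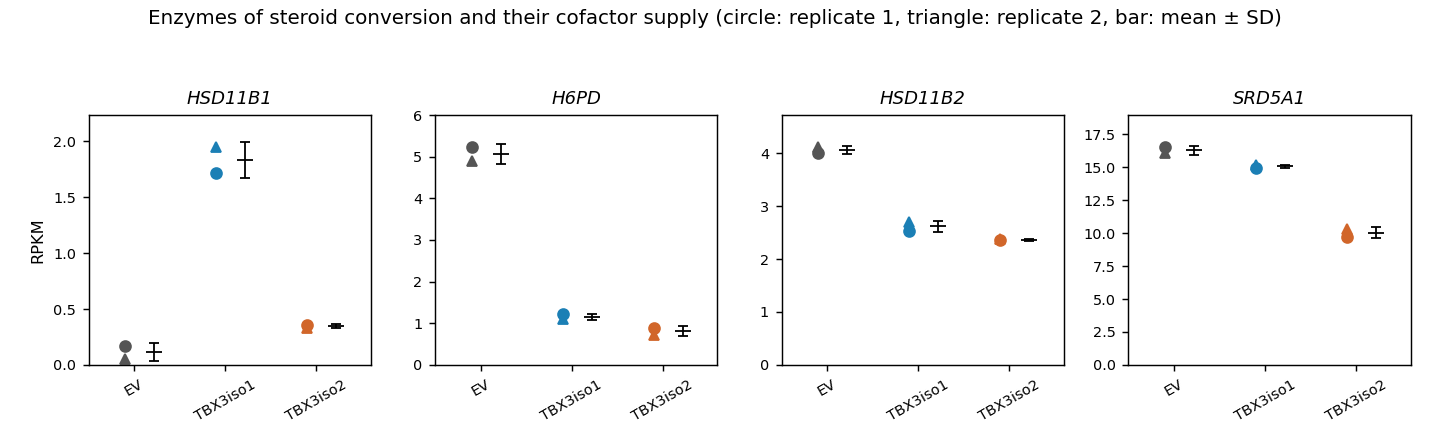
RPKM (y axes, from 0) of *HSD11B1*, *H6PD*, *HSD11B2* and *SRD5A1* in the 3 lines (x axis), with circles for replicate 1, triangles for replicate 2 and bars for mean ± SD of 2 libraries. *HSD11B1* is highest with TBX3iso1, at 1.72 and 1.95 RPKM, while *H6PD* and *HSD11B2* are lower in both TBX3 lines than in EV.

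Of the other steroid receptors, *ESR1*, the estrogen receptor, was the only one of 4 over the filter. It fell by 1.03 with TBX3iso1 and 0.79 with TBX3iso2. The latter call was lost in 5 of 16 alternatives, among them those without EV replicate 1 (-0.73) or TBX3iso2 replicate 2 (-0.56). Of 14 paralogs tested, 4 were called lower and 1 higher with TBX3iso1, and 5 lower and 3 higher with TBX3iso2, with medians of -0.07 and -0.17. That was 35.7% and 57.1% of the paralogs in either direction, beside 21.5% and 21.2% of all genes tested, and the 1 higher call with TBX3iso1 is near the 7.46% of all genes. *DUSP4* and *DUSP10*, phosphatases related to *DUSP1*, fell by 1.32 and 1.24 with TBX3iso1 and by 1.37 and 1.27 with TBX3iso2, and *DUSP2* rose by 2.73 and 1.69. *DUSP2* passed the filter through its TBX3iso1 level, and its changes ran from 1.12 to 3.42 and from 0.55 to 2.28 over the alternatives, the TBX3iso2 call being lost with a pseudocount of 1. *CEBPB*, the relative of *CEBPD*, fell by 1.19 and 1.11.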

How the data were processed

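RNA of 21NT lines carrying EV, TBX3iso1 or TBX3iso2 was sequenced from 2 libraries per line. The authors aligned paired-end reads of stranded mRNA libraries to hg19 with TopHat (listed with Partek in the submitters' processing notes; versions are not given in the sources used here) and deposited RPKM per gene, that is, values scaled for transcript length and for the number of alignments. The annotation is not given in the sources used here. Because RPKM is not a count, values were analysed as log2(RPKM + 0.1) with limma 3.58.1 in R 4.3.3 (1 mean per line over all 6 libraries, empirical Bayes moderation with a trend, Benjamini-Hochberg adjustment), over 12805 of 20824 genes, those averaging 0.5 RPKM or more. The pseudocount understates changes of low genes. The method was tested on simulated data. The 3 comparisons were TBX3iso1 and TBX3iso2 against EV and against each other.

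The 10 genes and the other gene lists were chosen with earlier results of these data known. Named besides were *TBX3*, *NR3C2*, *HSD11B1*, *HSD11B2*, *FKBP4*, *PER1* and, per list, up to 4 genes with the largest change among those called. *CD68*, *PTPRC* and *CDH5* among the markers, and *IL1A*, *IL1B*, *PTGS2* and *ICAM1* among the inflammatory genes, were named after their values were seen. Genes were placed on GRCh37 by symbol, and sequences were read from that genome. Alternatives were the pseudocount, the filter, the scaling, the moderation, the lines fitted together, a replicate block and each library left out. Replicate numbers come from the labels, and the deviations of same-numbered libraries from their line means correlated at 0.22 (EV and TBX3iso1), 0.114 (EV and TBX3iso2) and 0.499 (TBX3iso1 and TBX3iso2) across genes, so the numbers were treated as pairing the libraries in the blocked alternative.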

Additional observations from a re-analysis of the deposited data

Results flagged for a closer look

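The direct comparison of the TBX3 lines set apart 2 of the genes, by a test of the difference itself. Each isoform was carried by its own pool of clones. *TBX3* was higher with TBX3iso2 than with TBX3iso1 by 0.43 on the log2 scale (adjusted p = 0.0275 by limma), under the fold threshold. Isoform, *TBX3* level and pool therefore cannot be told apart. The log2 difference of TBX3iso2 against TBX3iso1 was 0.66 for *DUSP1* (adjusted p = 0.0286 by limma, higher in 2 of 2 libraries) and -0.64 for *SGK1* (adjusted p = 0.00838 by limma, lower in 2 of 2 libraries). For *DUSP1* the TBX3iso2 libraries, at 9.05 and 6.35 RPKM, differed from each other by more than the EV or TBX3iso1 libraries did, and the difference between the lines was 0.41 without TBX3iso2 replicate 1 and 0.91 without replicate 2.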

How the results depend on the processing

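The 10 genes gave 453 values under the alternatives, of which 423 kept their direction and their side of the threshold, 18 were no longer called, 1 became called, and 11 changed sign, none of them a call. The count of genes called was 5 to 6 with TBX3iso1 and 6 to 7 with TBX3iso2 over all alternatives. The replicate block gave 6, 7 and 2 genes called for TBX3iso1 against EV, TBX3iso2 against EV and TBX3iso2 against TBX3iso1, and changed no call among the 10 genes. For TBX3iso2 against TBX3iso1 the count of 2 went to 0 with a pseudocount of 1 and without moderation (on log2 or unlogged RPKM), and to 1 without the filter, with only those lines fitted, or without any 1 library (1 to 1).

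Sign changes touched small values. *NR3C1* with TBX3iso2 was 0.0636 under quantile normalization, and with 1 library left out it ran from -0.0806 to 0.10 (TBX3iso1), -0.21 to 0.15 (TBX3iso2) and -0.22 to 0.15 (between them). *FKBP4* with TBX3iso2 was -0.0089 under quantile normalization. Between the TBX3 lines, *KLF9* was -0.034 under median-ratio scaling and -0.0335 under quantile normalization (-0.14 to 0.18 with 1 library left out), *ERRFI1* ran from -0.24 to 0.0641, and the median of the genes tested was -0.0079 without the filter and at a minimum mean of 2 RPKM, -0.034 and -0.0335 under those scalings, and -0.14 to 0.15 with 1 library left out. With 1 library left out, *CXCL1* ran from -0.001 to 0.41 with TBX3iso1 and *PER1* from -0.23 to 0.0838 with TBX3iso2, and between the TBX3 lines *NCOA3* ran from -0.0889 to 0.35, *CREBBP* from -0.41 to 0.23, *DUSP10* from -0.22 to 0.15, *ERBB3* from -0.13 to 0.0297, *COL1A1* from -0.15 to 0.0157 and *CD14* from -0.11 to 0.10. The cause was not tested. Depth limits *ZBTB16* and, less so, *KLF15*. A line left with 1 library was assumed to vary like the others.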
